A study of Homo sapiens with 8 samples.

Results

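The Wnt pathway was examined here through 43 genes that encode its receptors, the machinery that exports its ligands, its cytoplasmic and nuclear effectors, its inhibitors and several of its transcriptional targets. The genes were picked by symbol from an expression table of 63816 entries, and all 43 were in it. RNA had been sequenced from 8 samples labelled Caco-2, an established human line from a colorectal adenocarcinoma. In 4 samples the cells carried the expression vector pcDNA3.1 without an insert (empty vector), and in the other 4 the same vector with SIGLEC12, which encodes full-length Siglec-XII, a sialic acid-binding Ig-like lectin family member that the study describes as not expressed in the parent line. All cells had been transfected with linearized plasmid and kept under G418 selection, and no other treatment is given. The accounts of replication differ: the series text mentions stable clones and a smaller number of cultures than there are samples, while the methods mention technical replicate libraries. Whether the 4 samples of a group are separate cultures is therefore not known, and a p-value measures only the spread between these samples. Empty vector and SIGLEC12 cells were transfected and selected separately, and an effect of Siglec-XII cannot be told apart from any difference that arose between those cell populations.

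In the canonical Wnt pathway, a secreted Wnt protein binds a Frizzled receptor together with an LRP5 or LRP6 co-receptor at the cell surface. Dishevelled proteins then inhibit a cytoplasmic destruction complex built on APC, an AXIN scaffold and the kinase GSK3B, so that beta-catenin is no longer degraded, enters the nucleus and activates genes bound by TCF/LEF factors. Several of those target genes, such as AXIN2, ZNRF3, RNF43, NKD1 and NOTUM, encode inhibitors that feed back on the pathway. In the intestine this pathway maintains the crypt stem cells, and in most colorectal carcinomas APC is lost or truncated, which leaves beta-catenin stable.

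Values are given as TPM, the abundance of a transcript scaled to its length and to the sample's total, so that levels of different genes may be set side by side. The depth behind them is not known from the table, which holds log2(TPM + 1) and no counts, and fold changes on that scale understate the change of low genes. SIGLEC12, the transfected gene, was at 0.12, 0.09, 0.07 and 0.04 TPM in the empty vector samples and at 1635, 1582, 1734 and 1716 TPM in the Siglec-XII samples. On the log2 scale its mean was 0.11 ± 0.05 (SD, n = 4) and 10.70 ± 0.06 (SD, n = 4), and the exact permutation p of 0.0286, two-sided, is the smallest that 4 against 4 samples allow. Samples had 15513 to 15934 entries at 1 TPM or more, and correlations across entries ran from 0.979 to 0.984 within groups and from 0.972 to 0.98 between them. Of 14 markers of intestinal epithelium, 10 stayed under 1 TPM in every sample, and FABP1, KRT20, SI and PHGR1 were listed at 0 throughout, while the transcription factors CDX1 and CDX2 averaged 147 and 40.6 TPM. The general epithelial genes KRT8, KRT18, KRT19, CDH1 and EPCAM averaged 306 to 4260 TPM. Of 18 markers of trophoblast, the epithelium of the placenta, 13 passed the filter on low values, among them GATA3 (380 TPM), HSD3B1 (345 TPM), PAGE4 (285 TPM) and KRT7 (247 TPM). Of those that passed, CGA, ERVFRD-1, ERVW-1, HLA-G and CYP19A1 averaged only 0.79 to 3.59 TPM. HLA-G was listed on 8 entries, and its value is that of the 1 entry used, not of their sum. The trophoblast markers GCM1, INSL4, CGB3, CGB5 and CGB8 stayed under 1 TPM in every sample. The intestinal markers other than CDX1 and CDX2, which would be looked for in the labelled line, were thus absent or low in both groups. None of them passed the filter. Those with a value averaged at most 0.64 TPM over all samples, among them VIL1 (0.64 TPM), GPA33 (0.53 TPM), HNF4A (0.09 TPM) and CDH17 (0.06 TPM).

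Few entries passed the adjusted threshold between the groups. Of the 63816 entries, 15590 reached 1 TPM in at least 4 samples and were tested with limma, and of these, 101 (0.648%) passed a Benjamini-Hochberg adjusted p of 0.05, with 53 (0.34%) higher and 48 (0.308%) lower in the Siglec-XII samples. The median log2 fold change over all tested entries was 0.067, and 10620 entries (68.1%) had a positive one. Values of the Wnt pathway genes were therefore read against this background.

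Among the 43 Wnt pathway genes, 34 passed the filter and 9 did not, namely FZD9, FZD10, DKK1, DKK2, DKK4, WIF1, SFRP1, LGR5 and LGR6. A single gene, AXIN2, passed the adjusted threshold, which is 2.94% of the 34 against 0.648% of all entries, and it was higher with Siglec-XII. No pathway gene changed 2-fold, either with the adjusted p (0.289% of all entries, 0.0385% higher and 0.25% lower) or with an unadjusted p of 0.05 or less (0.603% of all entries, 0.135% higher and 0.468% lower), the criterion closest to that of the study. The 4 Siglec-XII values lay entirely above the 4 empty vector values for AXIN2, ZNRF3, MYC, AXIN1 and APC, 5 of 34 genes (14.7%) against 9.17% of all entries in that direction. None of the 34 lay entirely below (1.68% of all entries). At an unadjusted p of up to 0.05 there were 9 genes (26.5%), all with positive changes, against 16.5% of all entries, of which 13.9% were higher and 2.61% lower. The log2 fold change was positive for 31 of the 34 genes and negative for FZD6, PORCN and LGR4. The median was 0.12, against 0.067 over all entries. After quantile normalization these medians were 0.069 and 0.0095, with 26 of 34 positive. The median SD between replicates of a group was 0.12 log2 units for the 34 genes and 0.14 for all entries. For entries with a mean of 4 log2 units or more it was 0.10. For 17 of the 34 genes the difference was larger than the gene's own pooled SD within groups. The share of all entries with such a difference was not counted, so this number has no background to be read against.

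**Figure D1:**
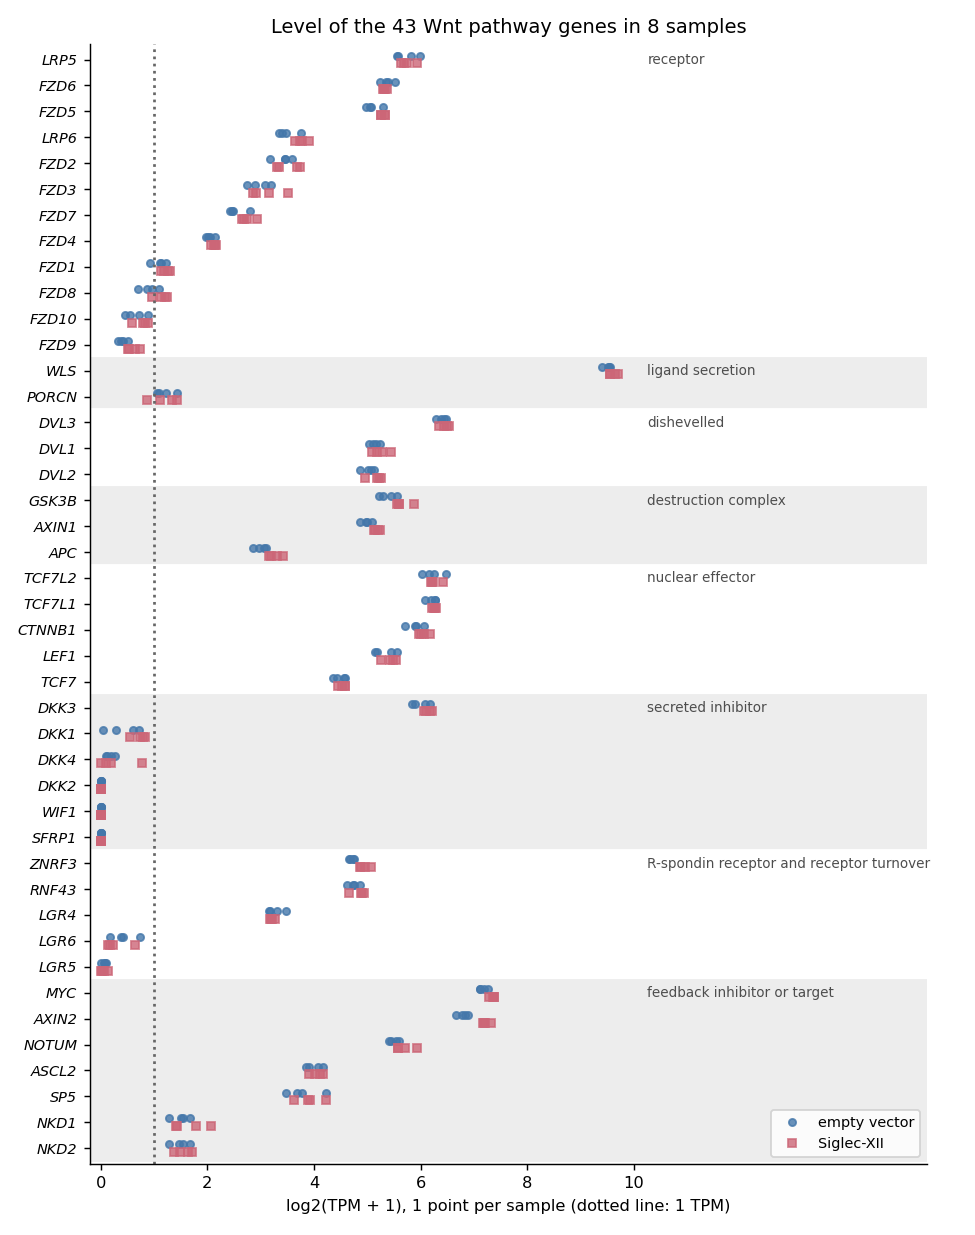
Level of each of the 43 Wnt pathway genes, ordered by role, on the log2(TPM + 1) scale (horizontal axis), with 1 point per sample, blue circles for the 4 empty vector samples and red squares for the 4 Siglec-XII samples. The dotted line marks 1 TPM, and 5 of the 6 secreted inhibitors as well as FZD9, FZD10, LGR5 and LGR6 lie wholly to its left, while WLS is the highest of all at a mean of 753 TPM.

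Frizzled receptors bind Wnt ligands through a cysteine-rich extracellular domain, and 8 of the 10 family members passed the filter. FZD6 and FZD5 dominated. Empty vector samples had 36.6, 39.8, 41.1 and 44.9 TPM of FZD6 and Siglec-XII samples 38.9, 38.4, 40.6 and 39.4 TPM. The Siglec-XII values lay inside the range of the controls, and the log2 fold change was -0.042 with a 95% interval from -0.19 to 0.10. FZD5 was at 32.6, 38.2, 31.98 and 30.7 TPM in the empty vector samples and at 39.2, 37.3, 37.1 and 39.5 TPM with Siglec-XII. A single control reached into the upper group, and the log2 fold change of 0.20 (SE 0.07) did not pass the test across all entries (limma adjusted p = 0.219). It fell to 0.13 after quantile normalization and to 0.089 once the trend with transcript length was removed. That length is the one of the single transcript named with each entry. Of the summed Frizzled TPM, 101.6 ± 6.40 in controls and 108.9 ± 3.48 in Siglec-XII samples (SD, n = 4 each), FZD6 took 40.0% and 36.2% and FZD5 took 32.9% and 35.2%.

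The other Frizzled genes were expressed at lower levels, in the order FZD2, FZD3, FZD7, FZD4, FZD1, FZD8, FZD10 and FZD9. FZD2 averaged 9.79 ± 1.26 TPM with empty vector and 10.6 ± 1.77 TPM with Siglec-XII (SD, n = 4 each), and FZD3 averaged 6.92 ± 1.08 and 7.76 ± 1.89 TPM. For both genes the Siglec-XII values overlapped the controls, and neither difference exceeded the replicate spread. FZD7 had 4.49, 5.95, 4.59 and 4.38 TPM with empty vector and 5.40, 5.70, 5.26 and 6.67 TPM with Siglec-XII, so that all but the second control lay below the Siglec-XII range (log2 fold change 0.21, adjusted p = 0.39, and 0.12 without the length trend). FZD9 was too low to be tested, at 0.34, 0.25, 0.42 and 0.30 TPM in controls and at 0.57, 0.43, 0.66 and 0.45 TPM in Siglec-XII samples. The 2 groups of FZD9 values did not overlap, but every value was under 1 TPM. FZD10 stayed between 0.37 and 0.85 TPM, with overlap.

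LRP5 and LRP6 are the single-pass co-receptors that are phosphorylated upon Wnt binding and recruit AXIN. LRP6 was listed on 2 entries with identical values, whose sum averaged 20.6 ± 2.94 TPM with empty vector and 25.2 ± 2.05 TPM with Siglec-XII (SD, n = 4 each). On a single entry the values were 12.4, 10.17, 9.18 and 9.51 TPM in controls against 12.3, 13.9, 11.5 and 12.6 TPM. The first control lay within the Siglec-XII range, and the log2 fold change of 0.27 (SE 0.10) had an adjusted p of 0.238 and fell to 0.15 once the length trend was removed. LRP5 averaged 52.6 ± 7.86 and 53.0 ± 5.17 TPM, a log2 fold change of 0.016 with an interval from -0.22 to 0.26. The difference between the 2 co-receptors was not tested. LRP6, with its entries summed, made up 28.2% ± 2.49 of the LRP5 and LRP6 total in controls and 32.3% ± 2.49 with Siglec-XII, and these shares overlapped between the groups.

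**Figure D2:**
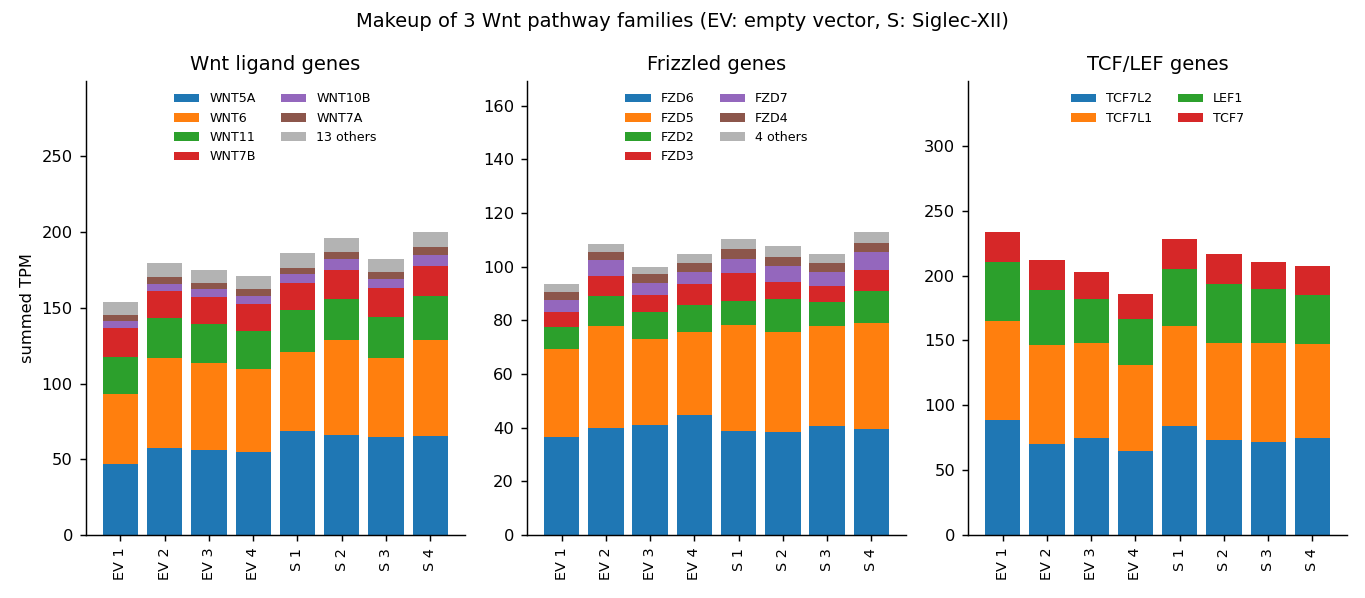
Summed TPM (vertical axis from 0) of the Wnt ligand, Frizzled and TCF/LEF genes in each sample, as stacked bars colored by gene, with empty vector samples (EV) on the left and Siglec-XII samples (S) on the right of each panel. The same genes led in all 8 samples, WNT5A and WNT6, FZD6 and FZD5, and TCF7L2 and TCF7L1, and the summed ligand level was 170.0 ± 11.4 TPM in controls and 191.1 ± 8.18 TPM with Siglec-XII.

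Before a Wnt protein leaves the cell it is lipid-modified by the acyltransferase PORCN and carried to the surface by WLS. WLS was the most abundant of the 43 genes, with 676, 737, 728 and 753 TPM in controls and 752, 746, 800 and 831 TPM in Siglec-XII samples. Only the fourth control reached the Siglec-XII range. The log2 fold change of WLS was 0.11 (SE 0.05, adjusted p = 0.321), and 0.050 with equal upper quartiles. PORCN was close to the filter at 1.31 ± 0.27 and 1.31 ± 0.39 TPM (SD, n = 4 each), with a log2 fold change of -0.014 and an interval from -0.38 to 0.35.

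The dishevelled proteins relay the signal from Frizzled to the destruction complex. All 3 genes were well expressed, DVL3 at 85.0, DVL1 at 35.7 and DVL2 at 33.1 TPM over all samples, and DVL3 took 55.9% of their summed TPM in controls and 54.7% with Siglec-XII. Log2 fold changes were 0.058 (DVL3), 0.12 (DVL1) and 0.14 (DVL2), each with an interval that includes 0 and with overlapping groups. DVL1 and DVL2 did not differ in level beyond their spread.

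The 3 destruction complex genes had a median log2 fold change of 0.27, and none passed the adjusted threshold. With the trend of transcript length removed this median was 0.15, and differences between the role groups were not tested. AXIN1, the constitutive scaffold of the complex, was at 30.5, 31.0, 33.0 and 28.0 TPM in controls and at 36.8, 34.5, 34.1 and 35.9 TPM in Siglec-XII samples. APC, the tumor suppressor that holds beta-catenin in the complex, was at 6.84, 7.32, 7.54 and 6.24 TPM and at 8.84, 8.15, 7.87 and 9.64 TPM. In both genes every Siglec-XII sample lay above every control. The log2 fold changes were 0.20 (SE 0.06, adjusted p = 0.162) for AXIN1 and 0.27 (SE 0.09, adjusted p = 0.206) for APC. GSK3B, the kinase that marks beta-catenin for degradation, was at 42.5, 46.0, 38.2 and 36.3 TPM in controls and at 47.3, 46.0, 57.9 and 47.5 TPM with Siglec-XII. The lowest Siglec-XII value fell just below the highest control, and the log2 fold change of 0.28 (SE 0.09) had an adjusted p of 0.199. For all 3 genes the change stayed positive under each of the 18 alternative settings, between 0.097 and 0.34, and none of those settings brought them past the threshold. The lowest values, 0.097 for AXIN1, 0.15 for APC and 0.17 for GSK3B, were those without the length trend.

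CTNNB1, the gene for beta-catenin itself, was at 50.9, 65.5, 58.8 and 59.6 TPM in controls and at 66.1, 61.5, 63.4 and 71.5 TPM in Siglec-XII samples. The groups overlapped through the second control (log2 fold change 0.16, SE 0.08, adjusted p = 0.347), and the log2 fold change was 0.085 without the length trend and 0.095 without the first control. This is the RNA level and says nothing of the amount of protein, which the pathway controls by degradation. Its partners on DNA, the TCF/LEF factors, gave summed levels of 208.4 ± 19.8 and 215.6 ± 9.03 TPM (SD, n = 4 each). TCF7L2 and TCF7L1 were at 75.3 and 74.1 TPM over all samples and did not differ beyond their spread, followed by LEF1 at 40.8 and TCF7 at 21.8 TPM. Their log2 fold changes were small, from 0.031 for TCF7L2 to 0.098 for LEF1. Those of TCF7L2, TCF7L1 and TCF7 turned slightly negative when samples were brought to equal distributions or equal upper quartiles, and the composition of the family was nearly the same in both groups, with 35.7% and 35.2% for TCF7L2.

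**Figure D3:**
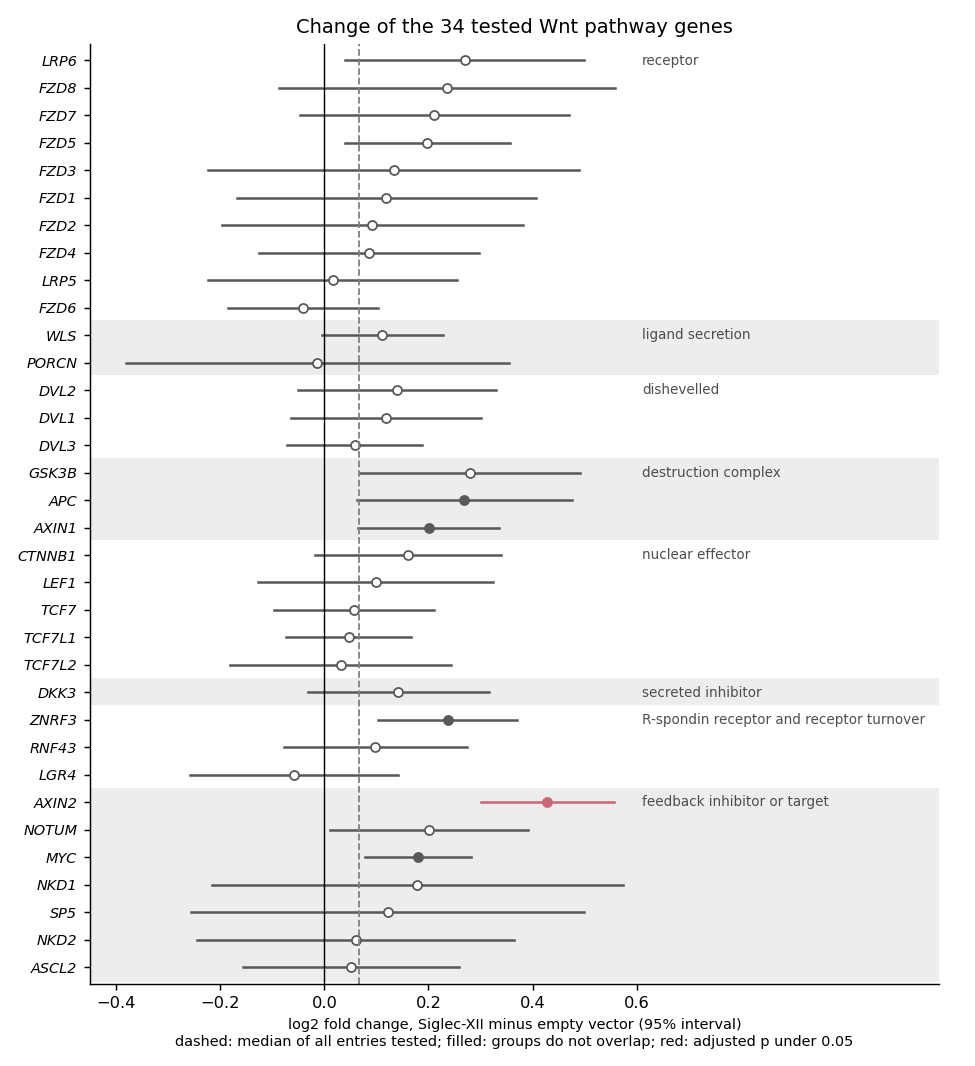
Log2 fold change of the 34 tested Wnt pathway genes, Siglec-XII minus empty vector, with 95% intervals from limma, ordered by role. The dashed line is the median of all 15590 entries (0.067), filled points are the 5 genes whose groups did not overlap, and only AXIN2 (red) passed the adjusted p of 0.05.

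Secreted inhibitors keep Wnt proteins or LRP co-receptors from engaging, and 5 of the 6 on the list were not expressed at a level that could be tested. DKK2, WIF1 and SFRP1 were listed at 0 in all 8 samples. DKK4 stayed at or under 0.72 TPM and DKK1 at or under 0.78 TPM. DKK1 was at 0.21, 0.53, 0.04 and 0.65 TPM in controls and at 0.73, 0.66, 0.46 and 0.78 TPM with Siglec-XII, with overlap. DKK3, a divergent family member, was the exception at 58.8, 70.9, 67.2 and 56.2 TPM in controls and 67.7, 66.1, 73.3 and 71.6 TPM in Siglec-XII samples. Its groups overlapped as well (log2 fold change 0.14, SE 0.08, adjusted p = 0.389, and 0.078 after quantile normalization).

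The receptors of R-spondins and the ubiquitin ligases they restrain set how much Frizzled remains on the surface. Of the LGR family, LGR5, the marker of intestinal stem cells, did not exceed 0.10 TPM and was at 0 in a sample of each group, and LGR6 did not exceed 0.66 TPM. LGR4 alone was expressed, at 8.71 ± 1.02 and 8.29 ± 0.25 TPM (SD, n = 4 each), with a log2 fold change of -0.058 and an interval from -0.26 to 0.14. ZNRF3, a transmembrane ligase that removes Frizzled from the membrane, was at 24.2, 24.6, 25.8 and 25.7 TPM in controls and at 28.2, 29.9, 28.6 and 32.4 TPM with Siglec-XII. Every Siglec-XII sample of ZNRF3 lay above every control. Its log2 fold change of 0.24 (SE 0.06) had an unadjusted p of 0.00288 and an adjusted p of 0.113, so it was not called, and it was 0.13 without the length trend. The related ligase RNF43 was at 25.9 ± 1.81 and 27.8 ± 2.41 TPM, with overlap and a log2 fold change of 0.10 (interval -0.08 to 0.27). The difference between ZNRF3 and RNF43 was not tested.

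AXIN2 (ENSG00000168646), on chromosome 17 at chr17:63524681-63557766 on the minus strand of hg19, encodes a scaffold of the destruction complex that is itself induced by beta-catenin and TCF/LEF factors and is widely used as a readout of the pathway. It was at 101, 109, 113 and 117 TPM in the empty vector samples and at 147, 143, 144 and 159 TPM in the Siglec-XII samples. The lowest Siglec-XII sample was well above the highest control, and the gap between the groups exceeded the range within either. The group means were 110.1 ± 6.97 and 148.4 ± 7.13 TPM (SD, n = 4 each), a 1.35-fold difference on the log2(TPM + 1) scale. The log2 fold change was 0.43 (SE 0.06, 95% interval 0.30 to 0.56) with a limma p of 2.83e-05 and an adjusted p of 0.01 over all 15590 entries. AXIN2 was the third most abundant of the 43 genes and exceeded AXIN1, taking 78.2% ± 1.74 of the summed AXIN1 and AXIN2 level in controls and 80.8% ± 0.64 with Siglec-XII, with overlapping shares. The call held in 17 of 18 alternative settings, with log2 fold changes from 0.34 to 0.46. The exception was the fit without the mean-variance trend, where the adjusted p was 0.0506.

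**Figure D4:**
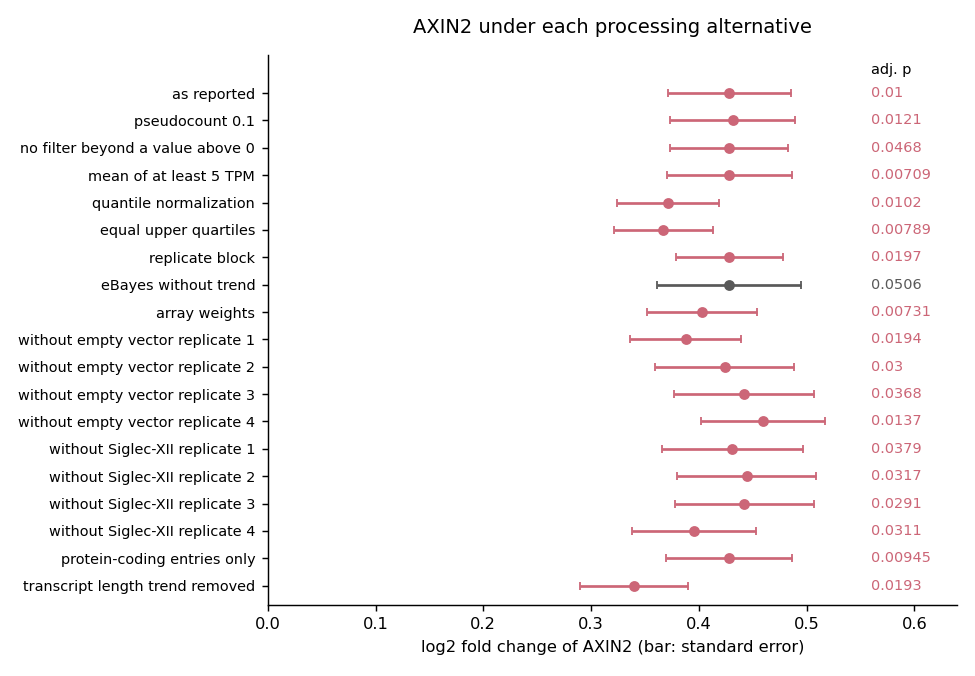
Log2 fold change of AXIN2, Siglec-XII minus empty vector, as reported and under 18 alternative settings, with bars for the standard error and the adjusted p at the right. All values lie between 0.34 and 0.46, and the adjusted p was over 0.05 only in the fit without the mean-variance trend (gray, 0.0506).

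The other targets and feedback genes did not pass the test. MYC, a growth-promoting transcription factor and a classical target of TCF7L2 in colorectal cells, was at 138, 152, 145 and 138 TPM in controls and at 164, 164, 155 and 164 TPM in Siglec-XII samples. Its groups did not overlap, with 152 TPM as the highest control and 155 TPM as the lowest Siglec-XII value, and the log2 fold change of 0.18 (SE 0.05) had an unadjusted p of 0.0031 and an adjusted p of 0.115. After quantile normalization it was 0.11. NOTUM, a secreted enzyme that inactivates Wnt proteins by removing their lipid, was at 42.4, 41.4, 45.5 and 47.5 TPM and at 46.9, 51.3, 46.6 and 59.7 TPM. The fourth control reached into the Siglec-XII range (log2 fold change 0.20, SE 0.08, adjusted p = 0.279, and 0.13 without the fourth Siglec-XII sample). NKD1 and NKD2, which bind and inhibit dishevelled, were low at 1.84 ± 0.32 and 2.26 ± 0.74 TPM for NKD1 and, summed over 2 identical entries, at 3.64 ± 0.61 and 3.88 ± 0.61 TPM for NKD2. Neither NKD gene differed beyond its spread. ASCL2, a transcription factor of intestinal stem cells, was at 15.1 ± 1.64 and 15.62 ± 1.35 TPM, with a log2 fold change of 0.052 (interval -0.16 to 0.26).

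**Figure D5:**
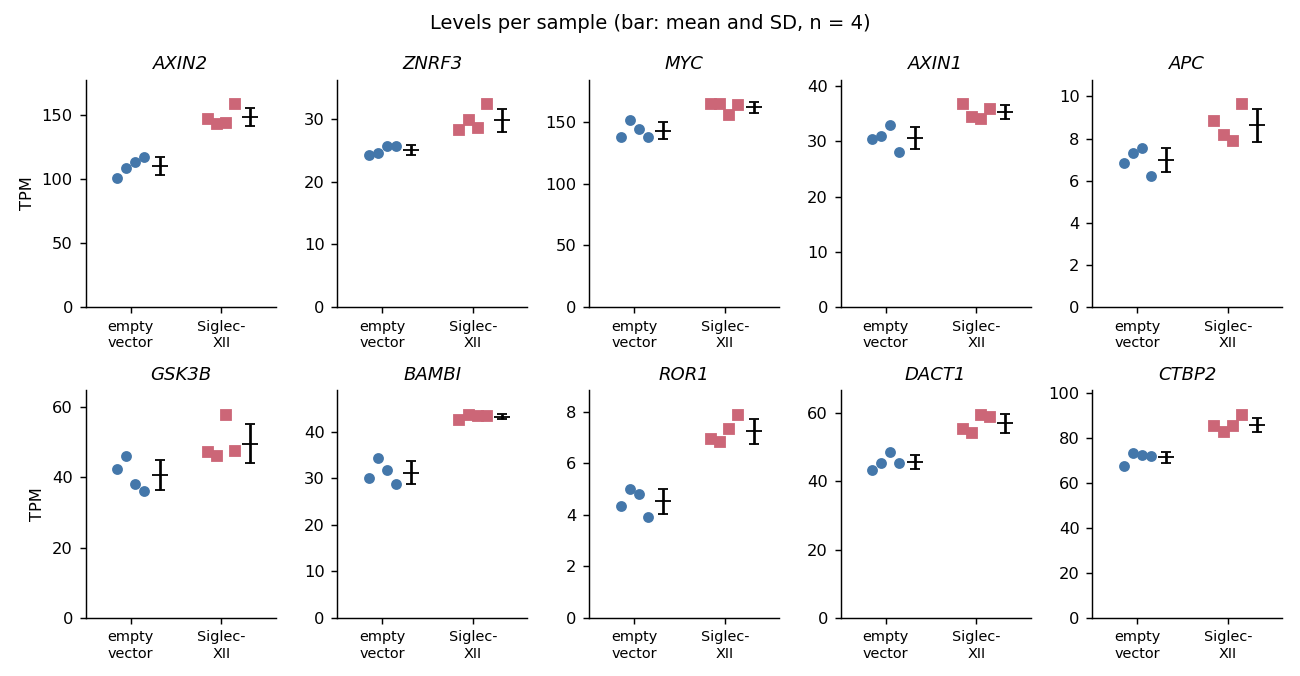
TPM in each sample (vertical axis from 0) of 6 of the 43 genes and of the further pathway genes BAMBI, ROR1, DACT1 and CTBP2, with blue circles for empty vector, red squares for Siglec-XII and a black bar for the mean and SD of the 4 samples beside them. GSK3B is the only one of these genes whose groups overlap, and AXIN2, BAMBI, ROR1, DACT1 and CTBP2 passed the adjusted threshold.

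SP5, a transcription factor gene that beta-catenin activates directly, was at 10.19, 12.7, 17.7 and 11.9 TPM in controls and at 14.1, 13.8, 17.7 and 11.3 TPM with Siglec-XII. Its groups overlapped over nearly their whole range, and the log2 fold change of 0.12 had an interval from -0.26 to 0.50. To see which of these genes carry the letters that TCF/LEF factors recognise, 300-base RefSeq promoter windows (GRCh38.p14, 250 bases before to 50 after the start) were searched on both strands for CTTTGAT or CTTTGTT or CTTTGAA or CTTTGTA, and no matches overlapped in the windows shown here. Of the 43 genes, 26 had a window and 4 of these (15.4%) held a match, namely SP5, DKK1, TCF7 and TCF7L2, against 16.4% of all 27305 genes with a window. The remaining genes had no window and were not searched, among them AXIN2, ZNRF3, MYC, NOTUM, NKD1 and ASCL2. The share among the searched Wnt pathway genes was thus near that of all genes, and it leaves out those without a window. SP5 had the most, 3, and its window is shown at chr2:170715087-170715386 on the plus strand, with the matches at positions -148, -109 and -84 from the start in capitals. The windows of BAMBI and DACT1, further pathway genes that passed the test below, are shown for comparison (both plus strand). BAMBI is at chr10:28677271-28677570, without a match. DACT1 is at chr14:58633811-58634110, the 1 of its 3 windows with a match, at position -214 in capitals. CTBP2 and ROR1 passed as well and are not shown, CTBP2 with 1 match, at position -62, and ROR1 with none. Among further pathway genes with a window, 13 of 81 (16.0%) held a match, near the 16.4% of all genes.
SP5: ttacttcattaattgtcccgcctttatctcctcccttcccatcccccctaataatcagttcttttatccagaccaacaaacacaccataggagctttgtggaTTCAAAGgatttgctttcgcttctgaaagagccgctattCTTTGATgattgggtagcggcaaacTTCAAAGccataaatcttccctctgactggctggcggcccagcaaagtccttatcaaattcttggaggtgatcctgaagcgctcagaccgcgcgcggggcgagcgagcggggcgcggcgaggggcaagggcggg
BAMBI: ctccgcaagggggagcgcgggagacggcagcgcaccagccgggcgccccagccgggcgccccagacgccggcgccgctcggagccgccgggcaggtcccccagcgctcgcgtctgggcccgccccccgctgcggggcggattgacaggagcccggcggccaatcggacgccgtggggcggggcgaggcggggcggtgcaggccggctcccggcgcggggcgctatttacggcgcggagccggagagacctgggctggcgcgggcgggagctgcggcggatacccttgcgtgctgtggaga
DACT1: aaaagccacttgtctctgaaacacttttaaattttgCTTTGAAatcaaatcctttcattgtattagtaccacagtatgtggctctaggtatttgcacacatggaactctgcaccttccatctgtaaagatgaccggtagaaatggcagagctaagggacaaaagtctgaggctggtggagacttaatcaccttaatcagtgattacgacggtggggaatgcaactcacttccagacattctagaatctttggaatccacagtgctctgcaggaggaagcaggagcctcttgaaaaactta

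A further 100 genes of the pathway, outside the 43, were read from the same fit, and 72 of them passed the filter. Of these, 4 (5.56%) were called, all higher with Siglec-XII, against 0.34% of all entries in that direction, and 57 of 72 had a positive log2 fold change. Their median log2 fold change was 0.10. The list, like the 43 genes, was chosen with earlier results of these data known, so its shares beside those of all entries are descriptive only. BAMBI, a pseudoreceptor that dampens TGF-beta signaling and a reported Wnt target, was at 30.0, 34.3, 31.9 and 28.8 TPM in controls and at 42.5, 43.7, 43.5 and 43.4 TPM in Siglec-XII samples. The groups were clearly apart, and the log2 fold change of 0.46 (SE 0.06, adjusted p = 0.00898) passed under all 18 alternative settings. ROR1, a tyrosine kinase-like receptor for WNT5A, was at 4.34, 4.99, 4.82 and 3.92 TPM in controls and at 6.95, 6.82, 7.35 and 7.89 TPM with Siglec-XII, also without overlap. Its log2 fold change of 0.58 (SE 0.10, adjusted p = 0.0319) passed in 8 of 18 settings.

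DACT1, which binds dishevelled, was at 43.5, 45.4, 48.5 and 45.4 TPM in controls and at 55.3, 54.1, 59.5 and 59.0 TPM with Siglec-XII. CTBP2, a transcriptional corepressor, was at 67.7, 73.6, 72.5 and 71.9 TPM in controls and at 85.2, 82.7, 85.3 and 90.4 TPM with Siglec-XII. Neither gene had overlapping groups. The calls were near the threshold, with log2 fold changes of 0.31 (adjusted p = 0.04) for DACT1 and 0.26 (adjusted p = 0.0466) for CTBP2, and they passed in only 3 and 2 of 18 settings.

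Of 19 Wnt ligand genes, 8 were expressed at a level that could be tested and none was called. WNT3 was listed on 3 entries and WNT9B on 2, and each was read from 1 entry only. On that entry WNT3 averaged 0.81 TPM and failed the filter, and the sum of its entries was not tested. WNT5A and WNT6 led, at 60.1 and 55.9 TPM over all samples, and did not differ in level beyond their spread in the controls. They were followed by WNT11 (26.6 TPM), WNT7B (18.7 TPM), WNT10B (5.78 TPM), WNT7A (4.30 TPM) and WNT9A (3.67 TPM), with WNT10A the lowest. WNT5A, which mostly acts without beta-catenin through ROR receptors, was at 47.0, 57.6, 56.2 and 54.7 TPM in controls and at 69.0, 66.4, 64.7 and 65.1 TPM in Siglec-XII samples. The WNT5A groups did not overlap, but the log2 fold change of 0.30 (SE 0.07) had an adjusted p of 0.0971 and was 0.20 without the length trend. The groups of WNT10B (log2 fold change 0.28, adjusted p = 0.207) and WNT11 (0.11, adjusted p = 0.333) did not overlap either, with Siglec-XII higher. The 4 R-spondin genes and NDP, which encodes Norrin, all failed the filter.

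Among all 72 further genes, 13 (18.1%) had groups without overlap, against 10.8% of all entries. Besides the 4 called genes and the 3 ligands these were TNKS2, HNRNPK, TBL1X, BMP4 and PROM1, with log2 fold changes from 0.13 to 0.34 and adjusted p from 0.109 to 0.235, and TLE4, a corepressor of TCF/LEF factors, which alone was lower (log2 fold change -0.075, adjusted p = 0.44). The general epithelial genes had positive log2 fold changes, from 0.065 to 0.24, and did not pass the test (adjusted p from 0.086 to 0.461). The summed TPM of KRT8, KRT18, KRT19, CDH1 and EPCAM ran from 8257 to 9230 in controls and from 9840 to 10220 with Siglec-XII, with 3 of 5 genes without overlap. The sum of the 14 intestinal markers, which came almost entirely from CDX1 and CDX2, ran from 163 to 186 and from 190 to 216 TPM, that of the 18 trophoblast markers from 1736 to 1859 and from 1721 to 1790 TPM, that of the 7 fibroblast markers from 70.7 to 86.8 and from 83.2 to 89.1 TPM, and that of the 5 pluripotent or germ cell markers, nearly all LIN28A, from 141 to 148 and from 156 to 168 TPM. None of the 54 marker genes was called, and the 5 hepatocyte markers were below the filter. In bulk samples, fewer cells of a type and less RNA per cell cannot be told apart, and the part of these differences in the pathway values was not tested.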

How the data were processed

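RNA from 4 empty vector and 4 Siglec-XII samples was compared. Per the labels, libraries were made with a strand-specific total RNA kit and sequenced as 100 bp paired reads (the study's methods name an mRNA kit instead). The authors quantified transcripts with kallisto (0.45.0 per the submitters' processing notes) against hg19 and deposited log2(TPM + 1) values per gene in a single table, with no counts, so the depth of a sample and its counting error are unknown here. The methods name a count-based test, which could not be applied to log2 values. Column sums of back-transformed TPM were 1000000 in every sample.

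Entries with at least 1 TPM in at least 4 samples were tested with limma (3.58.1 in R 4.3.3, eBayes with trend, two-sided, no covariates), on log2(TPM + 1), that is with a pseudocount of 1, with Benjamini-Hochberg adjustment over all 15590 entries. Adjusted p are from this fit unless an alternative setting is named. SIGLEC12 was compared by an exact permutation test. The script was tested on simulated data. For a repeated symbol the entry with the highest mean was used. LRP6 and NKD2 each had 2 identical entries. Entries of other repeated symbols, such as HLA-G, WNT3 and WNT9B, were not summed, also within the marker and ligand sums. Gene models were from GENCODE lifted to GRCh37 (55485 of 63816 IDs matched). Transcript length was the exon length of the single transcript named with an entry, which can be short, for example 580 bases for FZD3 and 700 for WLS. Promoter windows came from RefSeq. Genes were named when they belonged to the 43, or, among further pathway genes, when called, without overlap, or a tested Wnt ligand. The members, the lists and the tests were chosen with earlier results of these data known. Alternatives covered the pseudocount (0.1), filters, scaling, a replicate block, the eBayes trend, array weights, each sample left out, protein-coding entries, transcript length and, added after the data were seen, summed repeated entries.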

Additional observations from a re-analysis of the deposited data

Results flagged for a closer look

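In 3 of 96 groups of 4 samples, a value stood apart from the other 3 by more than Dixon's 95% critical value for 4 samples, and chance alone marks about 1 group in 20. For FZD7, the second empty vector sample was at 2.80 log2 units and the others at 2.43 to 2.48 (ratio 0.851). For GSK3B, the third Siglec-XII sample was at 5.88 and the others at 5.55 to 5.60 (ratio 0.858). For MYC, the third Siglec-XII sample was at 7.29 and the others at 7.36 to 7.37 (ratio 0.936).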

How the results depend on the processing

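Depth is unknown and the independence of the 4 samples of a group is not stated, so errors cover these samples only. AXIN2 stayed higher in all 18 alternatives, and no other of the 34 genes passed in any. The 1 called gene became 0 without the eBayes trend (AXIN2 adjusted p = 0.0506). Calls over all entries fell from 101 to 51 without the filter, 54 without the trend, 58 with protein-coding entries only and 66 with the transcript length trend removed, and ran from 49 (without the third empty vector sample) to 159 (without the second). Every other single omission gave 56 to 64. The share of calls that were higher was 52.5% as reported, 32.6% under quantile scaling, 29.3% where upper quartiles were equalized, 28.8% without the length trend, 86.2% for protein-coding entries and from 27.6% to 69.8% with a sample left out. The 4 calls among further pathway genes became 1 without the filter, with the replicate block and with the length trend removed, 2 under both alternative scalings and without the eBayes trend, and from 1 to 3 with a sample left out. The cause was not tested.

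Replicate numbers are shared by the groups, but deviations of same-numbered samples correlated only from -0.0741 to 0.0592. No shared effect of the number was thus seen, and whether the samples were paired by design is not known. With the number as a block, 69 entries were called and AXIN2 kept its call (adjusted p = 0.0197).

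Of the 34 genes, 23 kept their direction throughout and 11, none of them called, turned in at least 1 setting. Positive changes became over 1.5 times smaller or negative for 21 and 19 of the 34 genes under the quantile and upper quartile scalings, and for 27 of 33 without the length trend. After quantile normalization, equal upper quartiles and removal of the length trend in turn, LRP5 was at -0.048, -0.045 and -0.080, TCF7 at -0.018, -0.0018 and -0.019, TCF7L1 at -0.017, -0.014 and -0.025, and TCF7L2 at -0.024, -0.030 and -0.055. ASCL2 was at -0.018 and -0.0060 under the first 2 of these, DVL3 at -0.0031 with equal upper quartiles, FZD4 at -0.024 with the length trend removed and LRP5 at -0.0096 with array weights. With a sample left out, log2 fold changes ran from -0.089 to 0.0064 for FZD6, from -0.046 to 0.10 for LRP5, from -0.093 to 0.093 for PORCN, from -0.034 to 0.12 for TCF7L2, from -0.10 to 0.0082 for LGR4 and from -0.0066 to 0.12 for NKD2.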
